A study of Mus musculus with 20 samples.

Results

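10 of the 43346 genes counted in these tumors are described here: *Etv3*, which the study singles out, and 9 further members of the ETS family of transcription factors that are known from mammary epithelium or tumor stroma, namely *Etv1*, *Etv4*, *Etv5*, *Etv6*, *Ets1*, *Ets2*, *Elf3*, *Ehf* and *Elk3*. The list was drawn up by gene name with earlier results of these tumors known, the study picked out *Etv3* from values of these same tumors, and all 10 genes passed the filter on low counts. RNA from 20 spontaneous breast tumors, 1 per female mouse, was sequenced. All mice were [BALB/c-neuT x FVB/J] F1 hybrids that carried the neuT transgene, an oncogenic rat neu (*Her2*) gene, and no tissue without tumor was sequenced. Sample titles divide the tumors into 9 labelled Lo and 11 labelled Hi. The labels do not give the meaning of Lo and Hi or the age of single mice, and the study took each tumor from a different animal that bore several. Tumors are called here by their label and number (Lo 11).

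ETS factors share a DNA-binding domain that recognises a GGAA core, and most of them act as activators while a few, such as *Etv3* and *Etv6*, repress transcription. Several are phosphorylated by ERK, the kinase at the end of the Ras pathway through which *Her2* signals. *Etv1*, *Etv4* and *Etv5* form the PEA3 group, which FGF and ERK signaling induces in branching epithelia. *Elf3* and *Ehf* are restricted to epithelium, and *Ets1* and *Elk3* are well known from endothelial and other stromal cells.

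Promoter sequences from RefSeq (GRCm38.p6, from 250 bases before to 50 after the start of transcription) were found for 7 of the 10 genes and are printed for 3 of them, *Etv3* because the study singles it out and *Elf3* and *Ets2* because their levels moved together over the tumors. Capitals mark the GGAA core and its reverse complement TTCC, and each sequence is read 5′ to 3′ on the strand of its gene. *Etv3* lies at chr3:87525328-87525627 (forward strand), *Elf3* at chr1:135258423-135258722 (reverse strand) and *Ets2* at chr16:95702157-95702456 (forward strand).
Etv3: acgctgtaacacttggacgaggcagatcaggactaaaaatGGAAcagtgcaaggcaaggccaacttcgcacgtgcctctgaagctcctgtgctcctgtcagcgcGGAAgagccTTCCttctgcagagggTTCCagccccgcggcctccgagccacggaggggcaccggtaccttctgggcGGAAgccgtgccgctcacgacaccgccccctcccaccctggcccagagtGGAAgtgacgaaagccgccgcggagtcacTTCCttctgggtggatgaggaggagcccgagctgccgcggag
Elf3: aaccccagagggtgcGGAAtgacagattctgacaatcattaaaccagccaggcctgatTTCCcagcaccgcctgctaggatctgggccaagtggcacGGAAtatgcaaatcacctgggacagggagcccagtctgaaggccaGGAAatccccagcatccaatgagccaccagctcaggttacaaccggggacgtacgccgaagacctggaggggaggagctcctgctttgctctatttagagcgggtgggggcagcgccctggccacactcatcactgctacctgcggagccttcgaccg
Ets2: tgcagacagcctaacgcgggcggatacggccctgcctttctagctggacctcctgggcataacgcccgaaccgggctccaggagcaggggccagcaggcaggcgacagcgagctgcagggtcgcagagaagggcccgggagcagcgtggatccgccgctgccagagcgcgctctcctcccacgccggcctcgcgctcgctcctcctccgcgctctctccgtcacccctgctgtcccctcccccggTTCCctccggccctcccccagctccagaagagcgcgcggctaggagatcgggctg
The *Etv3* window held 7 cores on both strands together, and 8.02% of the 32851 windows of the same length held as many or more (median 3). The *Elf3* window held 4 and the *Ets2* window 1. At least 1 core was present in 96.0% of all windows, and in at least 1 window of each of the 7 genes. The longer ETS site CCGGAAG, which 8.86% of all windows contained on either strand, was not among the letters of any of the 7 genes' windows, nor were the Capicua sites TGAATGAA (1.30%) and TGAATGGA (1.21%) or the CRE TGACGTCA (1.79%). Where a site overlaps the core (CCGGAAG contains GGAA), both were counted.

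The gene counts of a tumor summed to 38765682 to 65465755 reads, and a pair of genes over the ribosomal RNA locus took 6.29% to 27.7% of them. The tissue label was checked against 7 luminal epithelial genes (*Epcam*, *Krt8*, *Krt18*, *Krt19*, *Cdh1*, *Cldn3*, *Cldn7*), which summed to 3119 to 4189 CPM (the reads of a gene relative to the TMM-scaled total of its tumor) in Lo and 2689 to 4291 CPM in Hi tumors. Genes of other cells were also present. The 7 fibroblast genes summed to 603 to 2273 CPM in Lo and 674 to 1833 CPM in Hi, the 8 endothelial genes to 62.4 to 149.96 and 70.5 to 129 CPM, and the 7 macrophage genes to 254 to 407 and 279 to 431 CPM. T cell genes summed to only 2.10 to 4.38 CPM in Lo and 2.34 to 5.98 CPM in Hi, and no marker gene was at 0 in all tumors. In such bulk samples, fewer cells of a type and less RNA per cell cannot be told apart.

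Levels of different genes were compared as RPKM, which divides the counts by the listed gene length and the total. *Etv5* had the highest level of the 10 genes, at 105 ± 12.1 RPKM (SD, n = 20), and it was also the highest of all 26 ETS genes examined. *Ehf* followed at 63.2 ± 11.2 RPKM. *Etv4* (21.2 ± 4.19) and *Etv1* (21.1 ± 1.88) came next, then *Ets2* (13.2 ± 1.54), *Etv6* (12.8 ± 1.62), *Elf3* (6.63 ± 1.56) and *Elk3* (6.21 ± 0.910), all in RPKM. *Ets1* (3.50 ± 0.633 RPKM) and *Etv3* (2.89 ± 0.306 RPKM) were lowest. Of the 9 steps between neighbours in this order, 5 were larger than their spread over tumors, and in each of those 5 the order held in 20 of 20 tumors. *Etv4* and *Etv1* did not differ beyond their spread (mean log2 difference -0.014, SD 0.31, *Etv4* higher in 10 of 20 tumors). The same was true of *Ets2* and *Etv6* (0.046, SD 0.18, higher in 13), *Elf3* and *Elk3* (0.071, SD 0.33, higher in 11) and *Ets1* and *Etv3* (0.25, SD 0.29, higher in 16). The order rests on the listed lengths, such as 10274 bases for *Etv3* and 2217 for *Elf3*. In CPM, which takes no account of length, *Elf3* was the lowest of the 10 (median 13.9 CPM over 20 tumors, against 29.3 for *Etv3*).

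**Figure D1:**
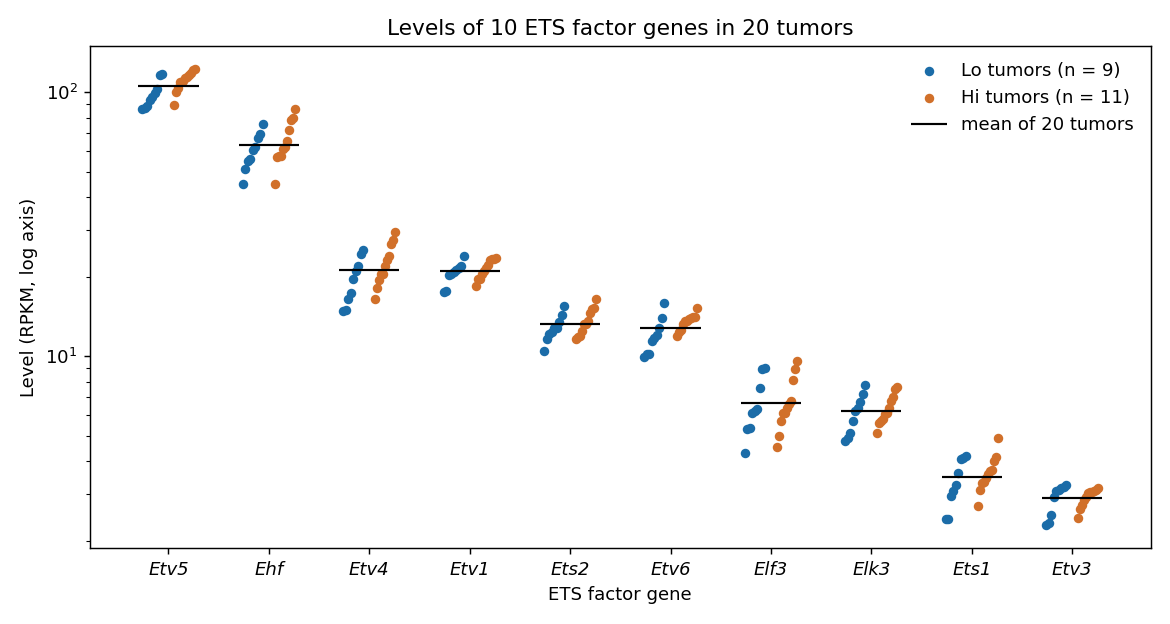
Level of each of the 10 ETS factor genes (RPKM, log axis) in the 9 Lo (blue) and 11 Hi (orange) tumors, 1 point per tumor, with a black line at the mean of 20 tumors. Genes are ordered by their mean, from *Etv5* at 105 RPKM to *Etv3* at 2.89 RPKM, and the Lo and Hi points overlap for every gene.

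Among the 16 other ETS genes, *Elf5*, the alveolar cell factor, had 21.9 ± 3.76 RPKM and *Erf*, the closest relative of *Etv3* and also a repressor, 16.1 ± 2.28 RPKM. *Spi1*, a factor of myeloid cells, had 2.86 ± 0.563 RPKM, close to *Etv3*. The endothelial factors *Erg* (0.705 ± 0.183 RPKM) and *Fli1* (0.727 ± 0.155 RPKM) were lower than each of the 10. *Fev*, *Etv2* and *Spib* had at most 18 counts in any tumor and did not pass the filter on low counts.

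*Etv3* (Chr3, 87525407 to 87540156, mm10, forward strand) varied little. It had 25.9, 30.7 and 35.5 CPM as its lowest, median and highest value in the Lo tumors, and 25.2, 29.0 and 32.9 CPM in the Hi tumors. The highest tumor was Lo 11 and the lowest Hi 6, and the ranges of Lo and Hi overlapped nearly throughout. The highest tumor had 1.41 times the level of the lowest. The SD of its log2 CPM was 0.14, against a median of 0.25 over 18883 genes tested, so that 12.1% of the genes had a smaller one. These were genes of all levels, among which the mean of *Etv3* was at percentile 68.2. In counts, *Etv3* had between 909 and 2087 reads per tumor.

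The PEA3 genes differed in how much they varied. *Etv1* (Chr12), an activator of this group, had 111, 124 and 145 CPM (lowest, median, highest) in Lo and 109, 123 and 136 CPM in Hi tumors, the narrowest range of the 10 genes (highest over lowest 1.33, SD of log2 CPM 0.12). *Etv5* (Chr16) had 372, 405 and 516 CPM in Lo and 373, 441 and 525 CPM in Hi. Both genes kept within a factor of 1.41 over the 20 tumors. *Etv4* (Chr11), the founding PEA3 gene, had 49.9, 63.5 and 73.8 CPM in Lo and 51.5, 70.8 and 86.9 CPM in Hi, a factor of 1.74. Its 3 highest tumors (Hi 7, Hi 10, Hi 1) were all labelled Hi, while its lowest were Lo 3 (49.9 CPM), Lo 4 (51.2 CPM) and Hi 11 (51.5 CPM).

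*Etv6* (Chr6), a repressor with a self-associating domain that is best known from blood cells, had 54.9, 74.4 and 83.0 CPM in Lo and 70.5, 78.9 and 85.4 CPM in Hi. Lo 8 was the lowest tumor for *Etv6*. It was also the lowest for *Elf3* and *Ehf*.

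The epithelial factors varied most. *Elf3* (Chr1), which acts in differentiation of epithelia, had 8.80, 14.7 and 21.4 CPM in Lo and 9.48, 13.4 and 21.5 CPM in Hi tumors, with 2.44 times as much in the highest tumor (Hi 8) as in the lowest (Lo 8). Its SD of log2 CPM was 0.35, the largest of the 10 and above that of 66.0% of genes. *Ehf* (Chr2), its relative, had 233, 363 and 428 CPM in Lo and 239, 355 and 448 CPM in Hi (a factor of 1.93, SD 0.25). *Elf3* lies wholly within *Gm26642*, an annotated antisense gene with 832 to 1874 counts per tumor against 452 to 1131 for *Elf3*. Since the strand setting of the counting is not given, it is not known whether reads on both genes were counted for *Elf3*, for *Gm26642* or left out.

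*Ets1* (Chr9), an activator of lymphocytes and vessels, had 22.3, 31.1 and 37.9 CPM in Lo and 22.3, 29.4 and 40.5 CPM in Hi, with the highest value in Hi 5. *Ets2* (Chr16), an activator that Ras signaling modifies, had 54.0, 59.4 and 78.6 CPM in Lo and 53.0, 59.4 and 78.4 CPM in Hi. Lo 11 and Hi 8 were the highest tumors for *Ets2*, as they were for *Elf3*. *Elk3* (Chr10), a partner of serum response factor, had 23.5, 29.2 and 33.5 CPM in Lo and 24.3, 26.5 and 33.3 CPM in Hi. Part of *Elk3* overlaps *Cdk17* on the other strand. In all, 8 of the 10 genes had a smaller SD than the median gene. All 10 also lay above the median gene in mean level (percentile 52.8 for *Elf3* to 99.1 for *Etv5*), and SDs were not compared among genes of like level.

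Lo and Hi are the only groups the labels give. None of the 10 genes differed between them at an adjusted p under 0.05 (edgeR's quasi-likelihood test, Benjamini-Hochberg over 18883 genes), and neither did any other gene (0.0% called). At an unadjusted p under 0.05 there were 0 of the 10 and 1045 of all genes (5.53%), and DESeq2 called 1 gene, *Serpina3g*, which is no ETS gene and was named after its value was seen. The estimates for the 10 genes were small. The log2 difference, Lo minus Hi, ran from -0.12 for *Etv4* (95% interval -0.33 to 0.091) to 0.070 for *Etv3* (-0.066 to 0.21), with a median of -0.0053 beside 0.00099 over all genes. The widest interval was that of *Elf3* (-0.25 to 0.38) and the narrowest that of *Etv1* (-0.086 to 0.16). True differences anywhere within an interval, up to its ends, remain compatible with the values of these tumors. Of the 13 other ETS genes tested, of 10 regulators and partners of ETS factors (among them *Cic*, *Atxn1*, *Cop1*, *Srf* and *Gabpb1*) and of 8 genes of ERK output, 0 were called.

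**Figure D2:**
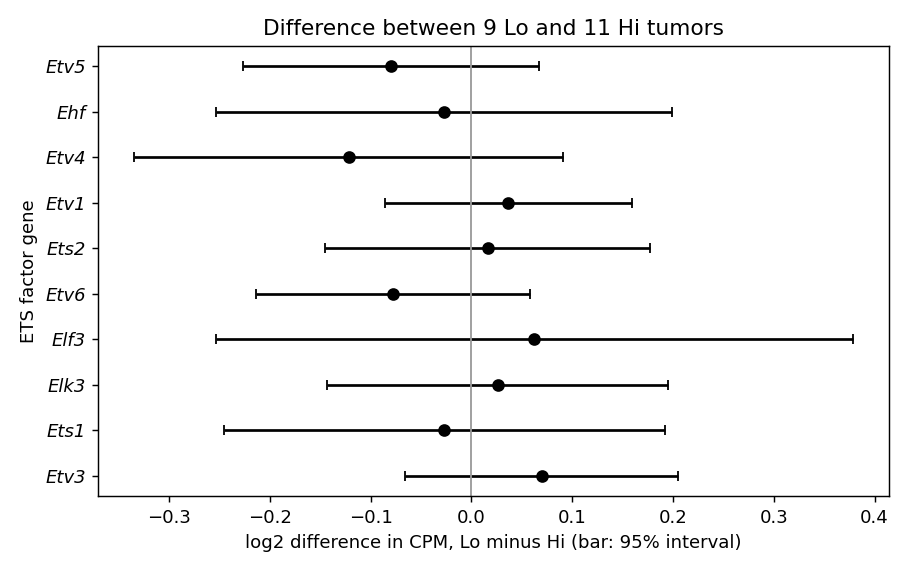
Difference in log2 CPM between the 9 Lo and the 11 Hi tumors for each of the 10 ETS factor genes (Lo minus Hi, horizontal axis), with its 95% interval from edgeR's quasi-likelihood fit. Every interval includes 0, and the points lie between -0.12 (*Etv4*) and 0.070 (*Etv3*).

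Since no group separated the tumors, each gene was set against 16 measures of a tumor: scores of 13 gene lists (8 cell types, milk genes, ERK output, immediate-early genes, proliferation, nuclear RNA), the level of mouse *Erbb2*, the share of the ribosomal RNA locus and the total count. Each measure was a covariate in SD units in edgeR's quasi-likelihood fit across all genes, and a slope is the log2 change per SD of the measure. Of the 160 relations between a gene and a measure, 2 were called (1.25%), where 1.88% of the relations of all genes were. Both called relations were with the luminal epithelial score.

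*Elf3* rose with the luminal epithelial score, by 0.28 log2 units per SD (SE 0.0479, adjusted p = 0.00975 by edgeR). The tumors with the highest scores, Hi 11 and Lo 11, had 19.99 and 21.4 CPM of *Elf3*, and those with the lowest, Hi 3, Hi 4 and Lo 8, had 9.48, 11.5 and 8.80 CPM. *Ets2* rose by 0.11 per SD (SE 0.0308, adjusted p = 0.0452), from 58.9, 56.9 and 54.0 CPM in the same low tumors to 69.3 and 78.6 CPM in the high ones. This score called 868 of 18876 genes (4.6%), and *Mapk3*, which encodes the kinase ERK1, was the only called gene among the 10 regulators (0.12 per SD, adjusted p = 0.0226). The other epithelial factor, *Ehf*, was not called. A score of nuclear RNA (*Malat1*, *Neat1*, *Kcnq1ot1*, *Meg3*, *Xist*) ran against the luminal score, at 0.81, 1.49 and 1.24 SD in Hi 3, Hi 4 and Lo 8 and at -1.06 and -1.11 SD in Hi 11 and Lo 11. With it as a further term neither relation was called (*Elf3* 0.35 per SD, adjusted p = 0.258, *Ets2* 0.10, adjusted p = 0.728). Without the 2 tumors farthest from the median score both calls ended as well, with slopes of 0.30 for *Elf3* (adjusted p = 0.0846) and 0.095 for *Ets2* (adjusted p = 0.250). *Elf3* remained called with each tumor left out in turn (adjusted p at most 0.0362), but not within the Lo (0.35, adjusted p = 0.664) or the Hi tumors (0.25, adjusted p = 0.0977). The sum of *Elf3* and *Gm26642* was called as well (0.20, adjusted p = 0.0143). *Gm26642* had 832 to 1874 counts per tumor against 452 to 1131 for *Elf3*, so the sum cannot show whether the relation of *Elf3* alone held. The call of *Ets2* ended with any 1 of 14 tumors left out (Lo 1, 3, 4, 6, 8 and 11 and Hi 1, 2, 3, 4, 8, 9, 10 and 11), where the adjusted p was 0.0504 to 0.134.

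**Figure D3:**
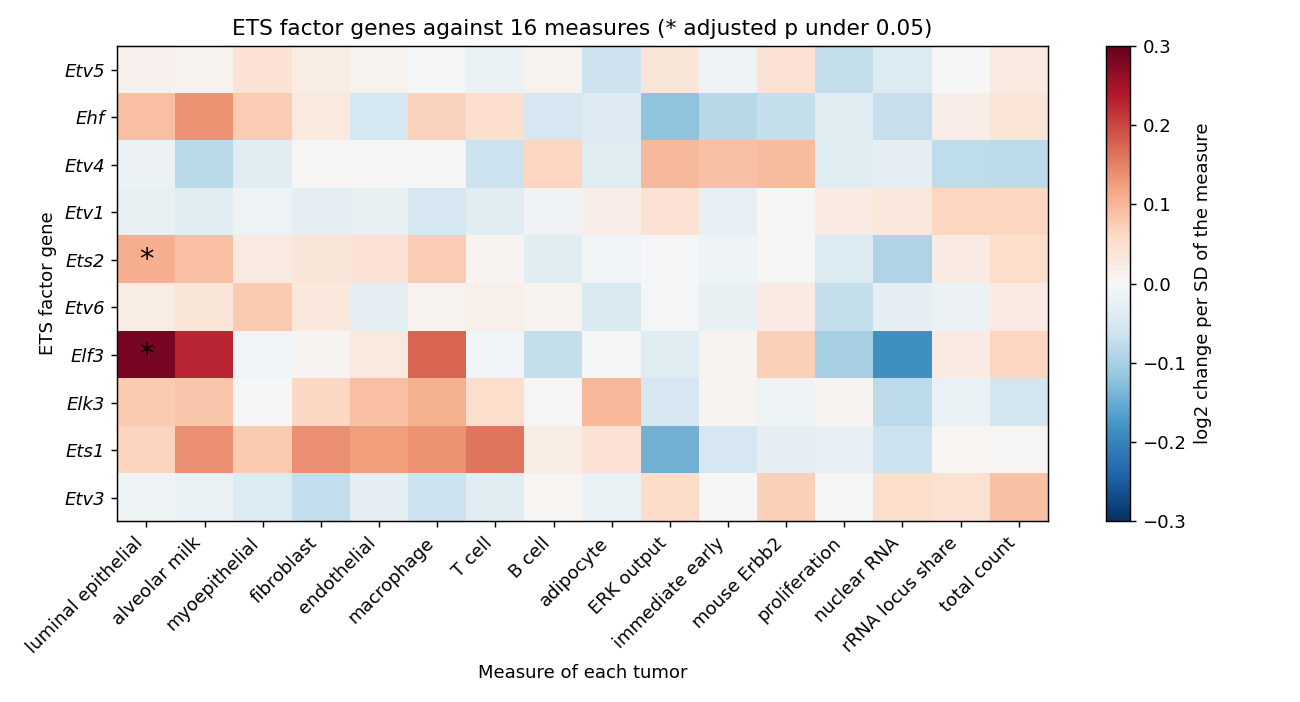
Slope of each ETS factor gene (rows) on each of 16 measures of the tumor (columns), as log2 change per SD, from -0.3 (blue) to 0.3 (red). A star marks an adjusted p under 0.05, which only *Elf3* (0.28) and *Ets2* (0.11) reached, both on the luminal epithelial score.

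No other relation was called. *Ets1* had a slope of 0.16 per SD on the T cell score (adjusted p = 0.0757, where 0.212% of all genes were called) and *Elf3* of 0.23 on the milk score (adjusted p = 0.0714). *Ets1* on the T cell score passed only with the nuclear RNA score as a further term (0.20, adjusted p = 0.0144). On the nuclear RNA score itself, to which 18.1% of all genes were called, *Elf3* (-0.18, adjusted p = 0.0657) and *Ets2* (-0.090, adjusted p = 0.0712) missed the threshold, but without the 2 tumors farthest in this score both fell with it (-0.30, adjusted p = 0.0105, and -0.15, adjusted p = 0.00714).

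ERK output was of interest because PEA3 genes are induced by this pathway. The score was built from the feedback genes *Dusp4*, *Dusp6*, *Spry2*, *Spry4*, *Spred1*, *Spred2*, *Phlda1* and *Fosl1*, and it called 78 genes (0.413%). *Etv4* had a slope of 0.097 per SD (SE 0.0477, adjusted p = 0.394), *Etv1* of 0.044 (SE 0.0286, adjusted p = 0.562) and *Etv5* of 0.037 (SE 0.0360, adjusted p = 0.768). Outside the PEA3 genes, *Ets1* and *Ehf* had larger slopes of opposite sign. They were -0.14 (SE 0.0435, adjusted p = 0.130 by edgeR) and -0.12 (SE 0.0479, adjusted p = 0.254). *Etv3* had 0.055, and *Elk3*, *Elf3*, *Ets2* and *Etv6* had -0.050, -0.036, -0.0060 and -0.0059. None of these was called. The slope of *Etv4* was 0.17 within the Hi tumors and -0.016 within the Lo tumors, neither of them called, and the difference between these slopes was not tested. Without the 2 tumors farthest in ERK output it was 0.022 (adjusted p = 0.949), and that of *Etv1* was 0.072 (adjusted p = 0.413). On mouse *Erbb2*, which called 0.0953% of all genes, *Etv4* had 0.096 (adjusted p = 0.364), or 0.037 without the 2 farthest tumors (adjusted p = 0.914), and *Etv3* had 0.071 (adjusted p = 0.253).

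*Etv3* was called on none of the 16 measures. Its slopes ran from -0.074 on the fibroblast score (SE 0.0300, adjusted p = 0.312, 1.88% of all genes called) to 0.088 on the total count (SE 0.0292, adjusted p = 0.667), and on the macrophage score, the cell type in which this repressor was described, it was -0.065 (SE 0.0303, adjusted p = 0.252), or -0.039 without the 2 farthest tumors (adjusted p = 0.741).

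The 13 tested family members outside the 10 genes were called 5 times over the 16 measures, where 1.88% of the relations of all genes were called. Each of the 5 was a rise. Neither their number nor their direction was tested against that of all genes. *Erg* (0.34 per SD, adjusted p = 0.00181) and *Elf4* (0.16, adjusted p = 0.0456) rose with the endothelial score, which called 0.911% of all genes. *Spi1* (0.19, adjusted p = 0.0322) and *Fli1* (0.25, adjusted p = 0.0486) rose with the macrophage score (1.86% of all genes), as did *Gm26642*, the antisense gene over *Elf3* (0.16, adjusted p = 0.0489). *Elf5* rose with the milk score (0.17, adjusted p = 0.0268, 0.636% of all genes). Of the 10 regulators, *Cic*, the Capicua repressor of PEA3 genes, rose with the nuclear RNA score (0.13, adjusted p = 0.00304), and *Mapk3* fell (-0.098, adjusted p = 0.0311), so that 2 of 10 were called where 18.1% of all genes were.

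The 10 genes were then set against each other, with the log2 CPM of 1 gene as the covariate for all others. Of the 90 ordered pairs, 3 were called (3.33%, beside 0.83% over all genes and the 10 covariates). *Elf3* on *Ets2* and *Ets2* on *Elf3* are the same pair fitted both ways. The other call came from the fit on *Ets1*, which called 4.06% of all genes. The 3.33% therefore does not show an excess among the 10 genes. *Elf3* rose with *Ets2* by 0.26 per SD (SE 0.0514, adjusted p = 0.0361), and *Ets2* with *Elf3* by 0.13 (SE 0.0272, adjusted p = 0.0359). Few genes passed in these fits, 28 of 18882 on *Ets2* (0.148%) and 77 on *Elf3* (0.408%). Lo 11 and Hi 8 were the highest tumors for both genes. Leaving out any of Lo 6, 8 or 11 or Hi 4, 8, 9 or 11 ended both calls (adjusted p of *Ets2* 0.0508 to 0.144), and leaving out any of Lo 1, 2, 3 or 4 or Hi 5, 6 or 10 that of *Elf3* only. With *Gm26642* (832 to 1874 counts, *Elf3* 452 to 1131) added to *Elf3*, which does not test *Elf3* alone, neither was called (adjusted p = 0.117 and 0.129). With the nuclear RNA score as a further term they were not called either (*Elf3* on *Ets2* 0.23, adjusted p = 0.339, *Ets2* on *Elf3* 0.11, adjusted p = 0.248), nor without the 2 farthest tumors (0.24, adjusted p = 0.208, and 0.12, adjusted p = 0.199). The slopes moved little in these fits, and with single tumors left out they stayed at 0.23 to 0.28 and 0.11 to 0.15.

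*Elk3* rose with *Ets1* by 0.12 per SD (SE 0.0314, adjusted p = 0.0263), where 766 genes were called (4.06%), while *Ets1* on *Elk3* was 0.17 (SE 0.0396, adjusted p = 0.116). Both genes were lowest in Lo 3 and stood high in Lo 4 and Hi 5. The call ended without Lo 2, Lo 3, Lo 4 or Hi 5 (adjusted p = 0.0542, 0.0671, 0.0690 and 0.102), although the slope stayed at 0.12 in each of these fits. It also ended without the 2 farthest tumors (0.12, adjusted p = 0.114). The sum of *Elk3* and *Cdk17* was not called on *Ets1* (0.060, adjusted p = 0.247). *Cdk17* had 906 to 2196 counts per tumor against 861 to 2088 for *Elk3*, so the sum does not test *Elk3* alone. In Lo 3, Lo 4 and Hi 5 the macrophage score was -2.28, 1.23 and 0.74 SD. The endothelial score there was -1.99, 1.87 and 0.74 SD. *Ets1* and *Elk3* had slopes of 0.13 and 0.11 on the macrophage score (adjusted p = 0.121 and 0.108 by edgeR). On the endothelial score they had 0.13 and 0.091 (adjusted p = 0.355 and 0.459). None of these was called, and whether both genes follow the share of such cells was not tested. *Etv4* and *Ehf* had slopes of opposite sign, -0.15 for *Etv4* on *Ehf* (adjusted p = 0.0576, where 3.21% of all genes were called) and -0.15 for *Ehf* on *Etv4* (adjusted p = 0.200). The first of these passed with the nuclear RNA score as a further term (-0.17, adjusted p = 0.0324). The PEA3 genes were not called on each other.

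**Figure D4:**
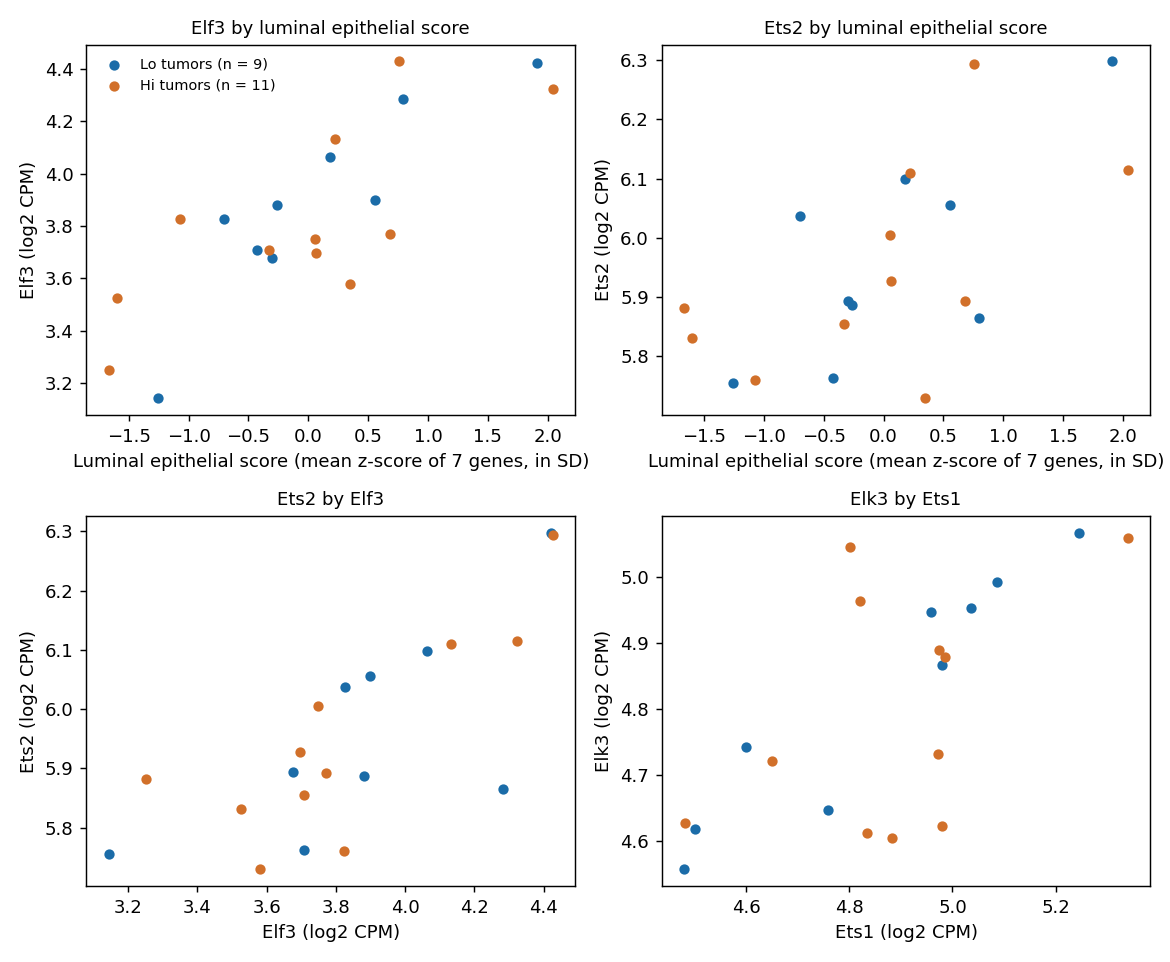
Called relations, 1 point per tumor (blue, 9 Lo, and orange, 11 Hi). The upper panels plot *Elf3* and *Ets2* (log2 CPM) against the luminal epithelial score in SD, and the lower panels *Ets2* against *Elf3* and *Elk3* against *Ets1* (log2 CPM). Lo 11 and Hi 8 are the upper right points of *Ets2* against *Elf3*, at 21.4 and 21.5 CPM of *Elf3*.

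For *Etv3*, 1 of 18882 genes was called (0.0053%), and it was *Lgals1*, which encodes galectin-1, a secreted sugar-binding protein of stroma and of many tumors. *Lgals1* had 35.1, 53.0 and 77.5 CPM (lowest, median, highest) in Lo and 35.0, 54.0 and 78.1 CPM in Hi tumors. It fell by 0.28 log2 units per SD of *Etv3* (SE 0.0437, adjusted p = 0.0384 by edgeR). Its highest tumors, Hi 6 and Lo 4, had 25.2 and 26.3 CPM of *Etv3*, and its lowest, Hi 4 and Lo 3, had 32.9 and 34.5 CPM. With the nuclear RNA score as a further term it was not called (-0.24, adjusted p = 0.127), nor without the 2 tumors farthest in *Etv3* (-0.30, adjusted p = 0.0950), and leaving out any 1 of 13 tumors (Lo 1, 2, 3, 4, 7, 8 and 9 and Hi 4, 6, 7, 8, 9 and 10) also ended the call (adjusted p 0.0536 to 0.305), with a slope of -0.31 to -0.26 over all 20 such fits. The named tumors also differed in stromal scores. Hi 6 and Lo 4, high in *Lgals1*, had macrophage scores of 1.74 and 1.23 SD and fibroblast scores of 0.97 and 1.98 SD. Hi 4 and Lo 3, low in *Lgals1*, had -1.76 and -2.28 SD, and -0.79 and -2.23 SD. Whether *Lgals1* and *Etv3* both follow the stromal share of a tumor was not tested. The other ETS genes had no call on *Etv3*, and that of *Etv1* was nearest (0.068, adjusted p = 0.275).

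The genes whose log2 CPM followed *Etv3* most closely over the 20 tumors, among 13831 genes, were *Hist2h4* (Pearson r = 0.79), *Ggn* (0.78), *Cblb* (0.78), *Cbx8* (0.77) and *Kansl1* (0.77). *Cblb* encodes a ubiquitin ligase of receptor signaling, *Cbx8* a Polycomb protein and *Kansl1* a part of an acetyltransferase complex. By Spearman's rho, 3 of these 5 (*Ggn*, *Cblb*, *Hist2h4*) were still among the first 5. The genes that ran most against it were *Lgals1* (-0.82) and *1810009A15Rik* (-0.79). These r values describe the same 20 libraries and were picked as extremes, and *Hist2h4* lies on Chr3 like *Etv3*.

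The nearest genes of the other members were found in the same way. Those of *Elf3* were *Rab17* (r = 0.92), a regulator of transport in polarised epithelium, and *Sh3bp4* (0.87), both on Chr1 like *Elf3*. *Etv4* was closest to *Noxo1* (0.87) and *Tbl3* (0.86), which with *St6galnac2* were the only 3 genes called on *Etv4* (0.0159%). *Etv1* was closest to *Rbm41* (0.89), its only called gene (0.0053%), and *Thap2* (0.83). *Ets1* followed *Clic4* (0.91) and *Neurl3* (0.90), and *Elk3* followed *Lmo2* (0.82), which acts in endothelial and blood cells, and *Med9* (0.80). *Ets2* was closest to *Hipk1* (0.85) and *Ier5* (0.83), an immediate-early gene, *Ehf* to *Cyfip1* (0.91) and *Zfyve9* (0.88), and *Etv6* to *C130021I20Rik* (0.91) and *Tspan2* (0.85). *Etv5* was closest to *Pcdhga6* (0.87) and *Pcdhga1* (0.86), which share exons in the protocadherin cluster. By Spearman's rho the ranks of these nearest genes ran from 1 (*Rbm41*, *Cyfip1*) to 59.5 (*Tspan2*, rho = 0.63). *C130021I20Rik* ranked 16 (rho = 0.70), and *Pcdhga6* and *Pcdhga1* ranked 9.5 and 11.5.

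Because the study describes gains and losses of chromosomes in these tumors, each gene was also set against the dosage of its own chromosome, the median log2 CPM of the other genes there relative to all autosomes. None of the 10 genes was called on it, while 4.45% of the 9531 genes on these 9 chromosomes were. With 10 genes, this count does not set them apart from the other genes. *Etv3* had the largest slope relative to its standard error (0.056 log2 units per SD of Chr3 dosage, SE 0.0305, adjusted p = 0.607), and Lo 11, its highest tumor, had a Chr3 dosage of 0.16 where no other tumor exceeded 0.022. No gene of Chr3 was called on it (0.0%). On Chr1, 149 of 1353 genes were called (11%), among them *Elk4* (0.18, adjusted p = 0.00301), an ETS factor, and *Cop1* (listed under its older name *Rfwd2*, 0.17, adjusted p = 0.00658), a ubiquitin ligase subunit for PEA3 proteins, whereas *Elf3* on the same chromosome was not (0.13, SE 0.0787, adjusted p = 0.518). Lo 8, the lowest tumor for *Elf3*, had the lowest Chr1 dosage (-0.30), and without the 2 tumors farthest in dosage the slope of *Elf3* was -0.13 (adjusted p = 0.811). *Ehf* was not called on Chr2 (-0.056, SE 0.0549, adjusted p = 0.759), whose dosage called 197 of 1554 genes there (12.7%).

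**Figure D5:**
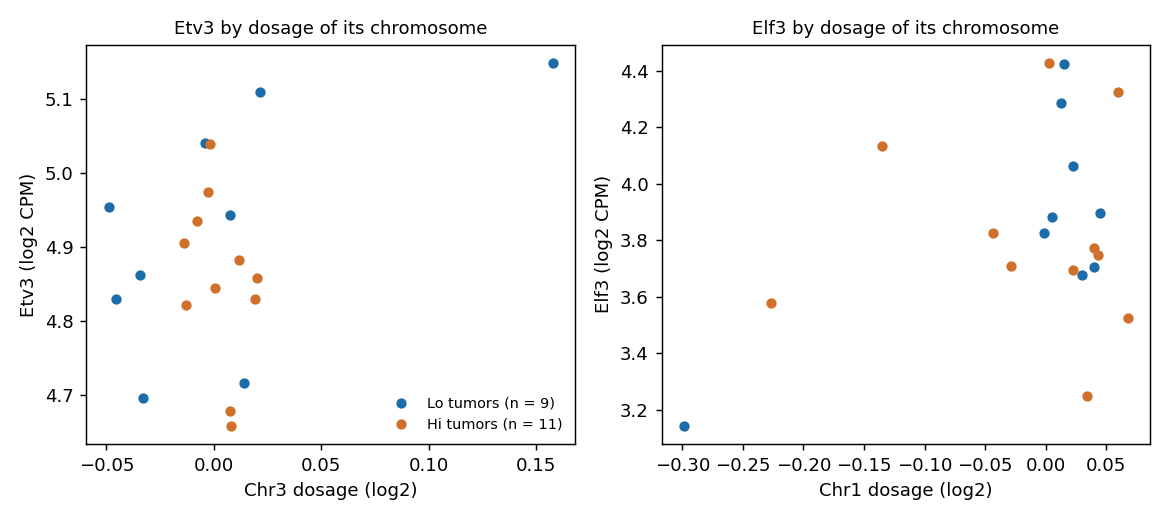
Log2 CPM of *Etv3* against Chr3 dosage (left) and of *Elf3* against Chr1 dosage (right), 1 point per tumor (blue, 9 Lo, and orange, 11 Hi). Lo 11 is the point at a Chr3 dosage of 0.16, and Lo 8 the point at a Chr1 dosage of -0.30.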

How the data were processed

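RNA from 20 tumors, each from a different mouse (TruSeq libraries), was read in pairs, which the authors cut to 100 bases and mapped on mm10. The submitters' processing notes name TopHat2 2.0.12 and featureCounts 1.4.4, and the strand setting is not given in the sources used here. What the authors deposited are unnormalized read counts for each gene. Counts do not separate the FVB/J and BALB/c alleles, and allele counts were not used here.

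Genes past filterByExpr (18883) were fitted with edgeR 4.0.16 (TMM, quasi-likelihood test, Benjamini-Hochberg over all genes tested) in R 4.3.3, with DESeq2 1.42.0 as an alternative. Log2 CPM used a prior count of 2, and log2 RPKM a pseudocount of 0.1. List scores average the z-scores of member genes and are given in SD. Chromosome dosage used genes whose CPM averaged 5 or more. Intervals (95%) used the SE and 18 degrees of freedom, and cover the spread between tumors. The scripts were tested on simulated data. Tables and figures used Python 3.11.15. No library duplicated another. Members and gene lists were chosen with earlier results of these data known. Named genes were the 10 members, listed genes, the 5 nearest and 2 farthest genes of *Etv3*, the 2 nearest of each other member, and, named after their values were seen, *Serpina3g*, *Mir7671* and *St6galnac2*. The overlapping genes *Gm26642* and *Cdk17* were taken from GENCODE M21, in which 9 of the 10 members had the span that the file lists. Leaving out each tumor from covariate fits and summing overlapping genes were chosen after seeing the data.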

Additional observations from a re-analysis of the deposited data

How the results depend on the processing

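Between Lo and Hi, 0 genes were called with edgeR, with each tumor left out in turn (0 to 0), with RLE factors and without the ribosomal RNA locus. DESeq2 (*Serpina3g*) and no filter on low counts (*Mir7671*) called 1 gene each. A member was never called between Lo and Hi. With each tumor left out, the difference turned sign for *Ets1* (-0.0809 to 0.0258), *Ets2* (-0.0304 to 0.0550), *Elf3* (-0.0154 to 0.136), *Ehf* (-0.0737 to 0.0313) and *Elk3* (-0.00624 to 0.0571). Lo and Hi share 9 replicate numbers, but of the 9 same-numbered pairs only 3 had a correlation of deviations over 0.1 (-0.42 to 0.21). The numbers were therefore not used as pairs in the main fits. These correlations cannot exclude that tumors of the same number have something in common, and the labels do not say. Fitted with a replicate block on these numbers (18 tumors), 0 genes and 0 members were called.

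Of the relations with measures, 2 were called, beside 1 without a filter, with Lo or Hi as a term or with the nuclear RNA score as a term (then *Ets1* on the T cell score), and 0 within Lo or within Hi. Without the 2 farthest tumors 2 were also called, but these were *Elf3* and *Ets2* on the nuclear RNA score, and both calls on the luminal score were lost (adjusted p = 0.0846 and 0.250). Of the ordered pairs of members, 3 were called (*Elf3* and *Ets2* in both directions, and *Elk3* on *Ets1*), beside 0 without the 2 farthest tumors or with overlapping genes summed. The sums hold all counts of *Gm26642* and *Cdk17* and do not test *Elf3* or *Elk3* alone. Lo and Hi alone hold 9 and 11 tumors, and the cause of the other losses was not tested. *Etv4* on ERK output turned to -0.016 within Lo, and *Elf3* on Chr1 dosage to -0.13 without the 2 farthest tumors. Left-out tumors moved the slope of *Elf3* on the luminal score only between 0.26 and 0.30. Of the genes most like *Etv3*, 3 of 5 were kept by Spearman's rho. Over the values of single genes, 220 of 247 alternatives and 274 of 340 fits without 1 tumor kept direction and call. Values not called in the main fit count as kept where they stay uncalled. These totals therefore do not measure how firm the calls are. Of the fits without 1 tumor, 52 lost a call and 14 changed sign. The 10 genes had at least 452 counts in every tumor.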
